A study of Rattus norvegicus with 62 samples.

Results

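Expression of 5 genes of MHC antigen presentation was followed in the amygdala of 62 male Long Evans rats. They were Cd74 (ENSRNOG00000018735), RT1-Da (ENSRNOG00000032844), RT1-Ba (ENSRNOG00000000451), RT1-Bb (ENSRNOG00000032708) and B2m (ENSRNOG00000017123), chosen by gene identifier as 5 of the 32545 rows of the count table. The names belong to the rule that chose them, since the table holds identifiers only. All 5 were among the 16535 genes with enough counts to be tested. The blast groups received an overpressure of 74.5 kPa in a shock tube every 24 h over 72 h at 10 to 12 weeks of age, and sham animals were handled alike without the exposures. The sub-acute time-point, called acute in the labels, lay 1 to 1.5 months after exposure and had 17 sham and 17 blast animals. The chronic time-point lay 12 to 14 months after exposure and had 14 sham and 14 blast animals. Per the paper, the animals went through behavioural tests, among them fear conditioning with foot shocks, and tissue was taken after the last test. Tests of object recognition and prepulse inhibition were left out for the chronic animals. The paper names the stress of testing as a possible confounder. Chronic animals were also older than sub-acute animals. Time since exposure thus cannot be told apart from age or from the difference in testing. Tissue was punched from the central and basolateral amygdala of both hemispheres, so each library is 1 rat and a mixture of cell types, in which fewer cells of a type and less RNA per cell cannot be told apart. Whether the punches held the labelled tissue could not be checked by marker genes, because the identifiers were not paired with symbols.

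MHC class II molecules present peptides from outside the cell to CD4+ T cells. They are made of an alpha and a beta chain, and in the rat the RT1-B and RT1-D loci encode them. CD74, the invariant chain, holds the newly made alpha and beta chains together, blocks the peptide groove and guides the complex to the endosome. In the brain, class II is known from microglia, from macrophages at the borders and vessels and from blood cells, and healthy parenchyma holds little of it. B2m encodes beta-2 microglobulin, the light chain of MHC class I molecules, which present peptides from inside the cell to CD8+ T cells and are found on almost every cell type. Class II genes and Cd74 are known to be switched on together through the coactivator CIITA, which acts on a conserved group of promoter elements called the X and Y boxes.

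Cd74, RT1-Da, RT1-Ba and RT1-Bb are together called the class II genes here. The promoters are shown because these 4 of the 5 genes varied together among animals, as described below. Whether the promoters have a part in that shared variation was not tested. Each is the stretch of 250 bases before the gene start, 5′ to 3′ on the strand of the gene, from RefSeq on the GRCr8 assembly. The reads were counted on Rnor 6.0, so these positions are those of the printed sequence only. Capitals mark ATTGG or its reverse complement CCAAT (the core of a Y box), GCAAC (found in many X boxes) and TGACGTCA (the cyclic AMP response element, the form of some X2 boxes).

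Cd74, chr18:56526956-56527205, plus strand: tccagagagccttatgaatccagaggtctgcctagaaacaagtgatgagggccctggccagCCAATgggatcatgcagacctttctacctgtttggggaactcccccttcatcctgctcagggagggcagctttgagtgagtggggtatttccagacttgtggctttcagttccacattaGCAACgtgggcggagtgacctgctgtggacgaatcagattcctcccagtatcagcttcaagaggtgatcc
RT1-Da, chr20:4515165-4515414, plus strand: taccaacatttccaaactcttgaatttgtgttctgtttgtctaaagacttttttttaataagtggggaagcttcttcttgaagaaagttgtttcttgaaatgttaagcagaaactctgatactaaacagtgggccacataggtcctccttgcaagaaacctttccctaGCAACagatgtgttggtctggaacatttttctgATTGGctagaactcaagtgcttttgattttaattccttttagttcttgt
RT1-Ba, chr20:4576807-4577056, plus strand: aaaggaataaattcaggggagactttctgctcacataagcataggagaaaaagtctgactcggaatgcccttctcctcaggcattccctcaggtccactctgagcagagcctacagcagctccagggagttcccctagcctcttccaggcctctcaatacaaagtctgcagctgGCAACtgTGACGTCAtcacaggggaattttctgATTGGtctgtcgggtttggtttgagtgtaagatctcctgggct
RT1-Bb, chr20:4604119-4604368, minus strand: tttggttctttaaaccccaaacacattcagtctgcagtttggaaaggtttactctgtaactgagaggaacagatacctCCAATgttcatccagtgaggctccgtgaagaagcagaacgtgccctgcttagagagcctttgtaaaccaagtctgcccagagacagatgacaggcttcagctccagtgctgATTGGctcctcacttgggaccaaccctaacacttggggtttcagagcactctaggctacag
B2m, chr3:129549080-129549329, plus strand: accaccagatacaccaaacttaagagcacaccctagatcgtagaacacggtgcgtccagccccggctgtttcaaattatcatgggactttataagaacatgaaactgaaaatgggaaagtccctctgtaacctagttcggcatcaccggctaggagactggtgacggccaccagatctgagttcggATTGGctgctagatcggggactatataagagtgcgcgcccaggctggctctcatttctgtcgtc

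The motifs were searched on both strands, and they were chosen after the sequences had been seen. All 5 promoters held ATTGG, as did 34% of the 33469 rat promoters of the same length. The longer CTGATTGG, which contains ATTGG and so overlaps it, began 52 bases before the start in RT1-Da, 46 in RT1-Ba and 64 in RT1-Bb, and 3.19% of all promoters held it. GCAAC began 70 bases before the start in Cd74, 82 in RT1-Da and 76 in RT1-Ba, and was found in 29.5% of all promoters. TGACGTCA was found in RT1-Ba, 69 bases before the start, and in 1.59% of all promoters. ATTGG and GCAAC together were found in Cd74, RT1-Da and RT1-Ba and in 9.79% of all promoters. Their layout differed. In RT1-Da and RT1-Ba, ATTGG came after GCAAC and began 49 and 43 bases before the start. In Cd74 the match was the reverse complement CCAAT, which came before GCAAC and began 189 bases before the start. These matches describe letters and do not show binding.

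The library totals ran from 18220986 to 78585782 counts and were lower at the chronic time-point (median 42328495 in sham and 37460121 in blast) than at the sub-acute time-point (50123693 and 54959799). Below 25000000 counts lay 2 libraries, those of animals CB149 (chronic blast) and CS115 (chronic sham). Animals carry numbers that begin with 1, 2 or 6, here called number series 1, 2 and 6, whose meaning the labels do not give. All 28 chronic animals belonged to series 1, with 2 sub-acute sham and 5 sub-acute blast animals. Levels are given as CPM, the count scaled to a common library total after TMM normalization, which is not corrected for gene length, so levels of different genes are not compared.

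Cd74 was detected in every animal. Its median level was 2.93 CPM in the sub-acute sham group (lowest 1.31, highest 13.8), 3.26 in the sub-acute blast group (2.15 to 5.99), 2.87 in the chronic sham group (0.751 to 13.8) and 3.04 in the chronic blast group (1.93 to 437.0). The medians of the 4 groups lay close to each other and the groups overlapped. A single chronic blast animal, labelled CB135, lay above all chronic sham animals, and the other 13 chronic blast animals ran from 1.93 to 8.52 CPM.

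The class II alpha chain gene RT1-Da had a median level of 0.698 CPM in the sub-acute sham group (lowest 0.212, highest 4.14), 0.742 in the sub-acute blast group (0.412 to 2.12), 0.841 in the chronic sham group (0.235 to 3.57) and 0.757 in the chronic blast group (0.107 to 118.2). The groups overlapped again. Animal CB135 lay above all chronic sham animals, and 2 chronic blast animals lay below all of them.

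RT1-Ba, the alpha chain gene of the RT1-B locus, had a median level of 0.467 CPM in the sub-acute sham group (lowest 0.144, highest 2.42), 0.542 in the sub-acute blast group (0.125 to 0.853), 0.585 in the chronic sham group (0.1501 to 2.27) and 0.443 in the chronic blast group (0.107 to 86.1). Its beta chain partner RT1-Bb had median levels of 0.196 CPM (0.0475 to 1.36), 0.217 (0.0627 to 0.516), 0.186 (0.05005 to 0.810) and 0.240 (0 to 17.4) in the same order of groups. Both genes overlapped between all groups, and animal CB135 was again the highest chronic blast animal. RT1-Bb rested on few reads, with under 10 counts in 7 rats of the sub-acute sham group, 8 of the sub-acute blast group, 9 of the chronic sham group and 7 of the chronic blast group, and 2 chronic blast animals had a count of 0.

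The median level of B2m was 161 CPM in the sub-acute sham group (lowest 121.2, highest 188), 160 in the sub-acute blast group (111.04 to 208.5), 182 in the chronic sham group (83.5 to 241) and 170 in the chronic blast group (43.2 to 378). The chronic groups reached both higher and lower than the sub-acute groups. The highest value was that of animal CB135, and the lowest value of each chronic group was that of its shallowest library, CB149 in blast and CS115 in sham.

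**Figure D1:**
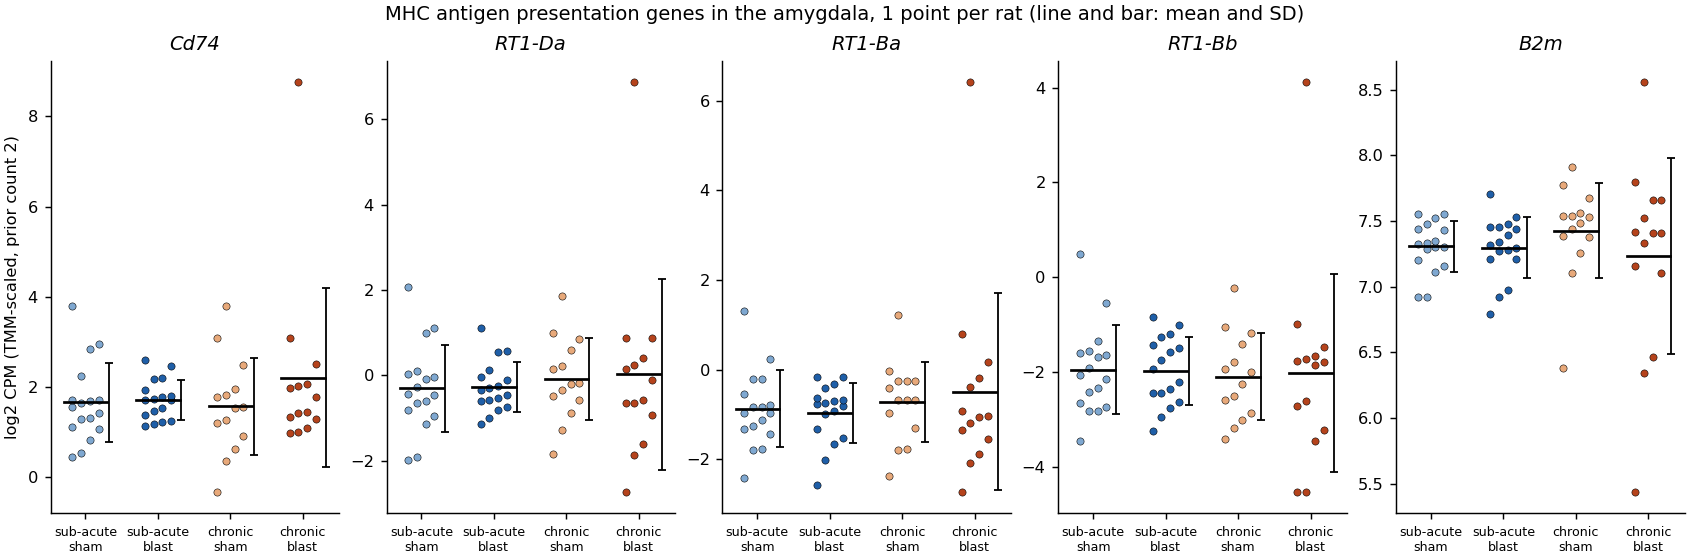
Level of each gene in log2 CPM (vertical axis, prior count 2) for each of the 62 rats by group, with the group mean as a line and the SD as a bar; each panel has its own scale. The 4 groups overlap in every panel, and animal CB135 stands alone at the top of the chronic blast group at 437.0 CPM of Cd74, 118.2 of RT1-Da, 86.1 of RT1-Ba, 17.4 of RT1-Bb and 378 of B2m.

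In animal CB135 the class II genes stood far apart from those of all other animals. It had 20045 reads of Cd74, where the other 13 chronic blast animals had a mean of 3.53 ± 1.85 CPM (SD), and its level was 162 times their median. The level was 187 times the median of these animals for RT1-Da (5421 reads), 195 times for RT1-Ba (3947 reads) and 75.2 times for RT1-Bb (799 reads), but 2.23 times for B2m (17340 reads). Against the highest of all 61 other animals, sub-acute sham animal AS211, the level was 31.6 times as high for Cd74, 28.6 for RT1-Da, 35.6 for RT1-Ba and 12.9 for RT1-Bb. For B2m it was 1.57 times that of the next animal, chronic sham animal CS127.

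An excess of at least 4 times over the next highest animal covered few genes. In animal CB135, 25 of the 16535 genes (0.151%) were at least 4 times as high as in the next highest animal, and 4 of these were Cd74, RT1-Da, RT1-Ba and RT1-Bb. The other 61 animals together had 1 such gene. This threshold was chosen after the values of animal CB135 had been seen, so the count is a description. Lower thresholds were not tried. The library of animal CB135 was not shallow (46098756 counts). Across all genes its median correlation to the other chronic blast animals was 0.969, where these medians ran from 0.928 to 0.981 in the group. Only animals CB149 (0.928), the shallowest library, and CB111 (0.961) had lower medians in this group. What set animal CB135 apart was not tested, and marker genes of other cell types were not analysed here.

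The ratios of the class II chains to Cd74 in animal CB135 lay within the wide ranges of the other animals. For every 100 Cd74 reads this animal had 27.0 reads of RT1-Da, and the other 61 animals had 4.44 to 70.4 (median 25.9). The number was 19.7 for RT1-Ba (4.44 to 63.0 in the others, median 16.5) and 3.99 for RT1-Bb (0 to 18.1, median 6.32). For RT1-Bb, 16 of the 61 other animals lay lower. All 3 ratios lay inside the range of the others, but these ranges were wide and included animals with few reads. B2m did not, with 86.5 reads per 100 Cd74 reads, below all 61 other animals (1247 to 29220, median 5445). These are ratios of read counts for comparing animals and not of transcript numbers.

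The first question was whether blast changed these genes at either time-point. At the sub-acute time-point 0 of the 5 genes passed both thresholds in limma, an adjusted p under 0.05 and at least a 1.2-fold change, as did 0% of all genes, and 0 of 5 had a raw p under 0.05 with that fold, against 1.21% of all genes. On the log2 scale blast differed from sham by -0.08 in RT1-Ba to 0.07 in RT1-Da (raw p from 0.855 to 0.999 in limma). The median over the 5 genes was 0.00082, beside -0.00019 over all genes tested. The interval was narrow for B2m, from -0.29 to 0.27 on the log2 scale (95%), and wide for RT1-Da, from -0.82 to 0.96. The fit shares 1 estimate of the spread per gene over all groups, so chronic blast animal CB135 widened these class II intervals. Without this animal the interval of RT1-Da ran from -0.54 to 0.68. Among the 26 sub-acute animals of number series 2 alone, the log2 fold changes ran from -0.17 in RT1-Ba to 0.09 in Cd74. Within series 1, with 2 sham and 5 blast animals, they ran from -0.67 in RT1-Bb to 0.14 in B2m (SE 1.12 and 0.43).

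At the chronic time-point, again 0 of 5 genes passed the adjusted threshold (0% of all genes) and 0 of 5 the raw threshold (2.5% of all genes). Cd74 had a log2 fold change of 0.73 (SE 0.47) in blast against sham, with an interval from -0.20 to 1.66 and an adjusted p of 0.901 in limma. The value was 0.29 (SE 0.50) for RT1-Da, 0.37 (SE 0.50) for RT1-Ba, 0.16 (SE 0.54) for RT1-Bb and -0.19 (SE 0.16) for B2m. The median of the 5 genes was 0.29, beside 0.0016 over all genes tested, and it rested on animal CB135. Without this animal the log2 fold change was 0.17 for Cd74, -0.31 for RT1-Da, -0.23 for RT1-Ba, -0.38 for RT1-Bb and -0.29 for B2m. B2m then had a raw p of 0.0483 in limma, with an interval from -0.58 to -0.0023 and an adjusted p of 0.863, so it did not pass the correction. In the chronic groups all animals belong to number series 1, so the comparison lies within a series.

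The second question was how the genes differed between the time-points. In sham animals 0 of 5 genes passed the thresholds, where 1.55% of all genes did, and 0 of 5 had a raw p under 0.05 with the fold of 1.2, where 8.85% did. The log2 fold changes of chronic against sub-acute then ran from -0.18 in RT1-Bb to 0.23 in RT1-Da (raw p from 0.421 to 0.831 in limma). Within series 1, which left 2 sub-acute sham animals, they ran from -0.97 in RT1-Bb to 0.18 in B2m. Animal CB135 also entered the spread of the main sham comparison, where the SE of Cd74 was 0.45, or 0.28 without this animal. In blast animals 0 of 5 genes passed, where 9.73% of all genes did, and again 0 of 5 had such a raw p, where 16.3% did. The log2 fold change was 0.56 (SE 0.42) for Cd74, 0.44 (SE 0.47) for RT1-Da, 0.60 (SE 0.47) for RT1-Ba, -0.03 (SE 0.49) for RT1-Bb and -0.06 (SE 0.15) for B2m, with adjusted p from 0.380 to 0.978 in limma. Within series 1, with 5 sub-acute blast animals, the values were 0.48, 0.39, 0.25, -0.15 and -0.15 in the same order. The change with time did not differ between blast and sham at the threshold used, as 0 of 5 genes (0% of all genes) had an adjusted p under 0.05 for the interaction and 0 of 5 a raw p under 0.05 (5.56% of all genes). The interaction was 0.66 for Cd74 on the log2 scale, with an interval from -0.57 to 1.90, and from -0.18 in B2m to 0.45 in RT1-Ba for the others.

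The call for blast animals differed between the methods. edgeR's quasi-likelihood test passed 4 of 5 genes between the chronic and sub-acute blast groups, beside 13% of all genes. Its log2 fold changes were 3.34 for Cd74 (adjusted p = 0.00021), 3.42 for RT1-Da (adjusted p = 0.00026), 3.70 for RT1-Ba (adjusted p = 0.00015) and 2.55 for RT1-Bb (adjusted p = 0.0021), and 0.08 for B2m. All 4 calls were lost in edgeR without animal CB135, where the values were 0.05, -0.02, 0.14 and -0.35, and 13.1% of all genes passed. DESeq2, which replaces outlying counts, gave 0.04, -0.04, 0.13 and -0.35 over all animals in the same order. None of these was called (adjusted p from 0.576 to 0.957 in DESeq2), where 14% of all genes were. Between chronic blast and chronic sham animals, edgeR gave a log2 fold change of 3.16 for Cd74 with an adjusted p of 0.064, and -0.13 without animal CB135. The 4 calls thus rested on 1 of the 14 chronic blast animals. With surrogate variables in limma, B2m was the 1 gene of the 5 to be called between the blast groups (log2 fold change 0.29, adjusted p = 0.0114), beside 2.51% of all genes. The value of B2m between the sham groups was close to this in the same fit (0.25, adjusted p = 0.0081) and missed the call by its fold of 1.19, and the interaction was 0.03 (adjusted p = 0.996).

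**Figure D2:**
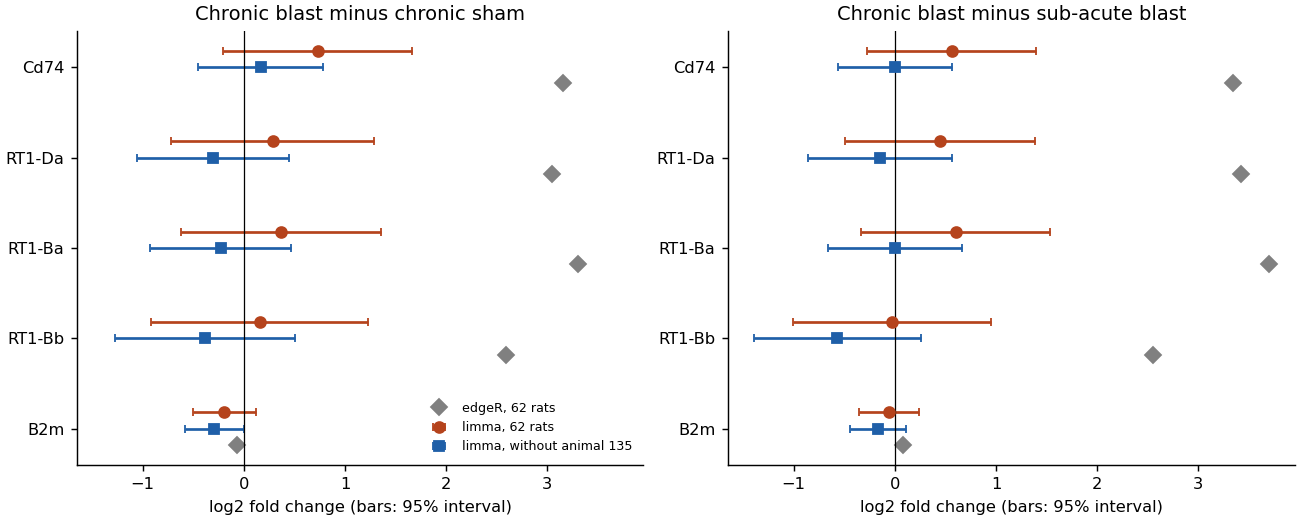
Log2 fold change of each gene (horizontal axis) between chronic blast and chronic sham animals and between chronic and sub-acute blast animals, by limma with and without animal CB135 (bars: 95% interval) and by edgeR (points without bars). The limma intervals with animal CB135 include 0 for every gene, and the edgeR values of the 4 class II genes, from 2.55 to 3.70, stand apart from them.

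Apart from animal CB135, the class II genes rose and fell together from rat to rat. Sub-acute sham animal AS211 was the highest of its group for Cd74, RT1-Da, RT1-Ba and RT1-Bb (13.8, 4.14, 2.42 and 1.36 CPM), and chronic sham animal CS125 was the highest of its group for the same genes (13.8, 3.57, 2.27 and 0.810 CPM). In the sub-acute blast group animal AB239 was the highest for Cd74, RT1-Da and RT1-Bb (5.99, 2.12 and 0.516 CPM) and the second for RT1-Ba (0.847 CPM, after 0.853 in animal AB110). The highest B2m values of these groups were found in other animals, AS105, AB206 and CS127.

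Over the 62 animals, after subtracting group means, 15 relations were computed, 10 between the genes and 5 with the library total. Cd74 and RT1-Da had a Pearson r of 0.90 (permutation p = 1e-05, which is the smallest value possible with 100000 resamples, adjusted p = 2.5e-05 over the 15 relations) and a Spearman rho of 0.81 (permutation p = 1e-05, adjusted p = 3e-05). Without animals CS125 and CB135, the farthest from the median of Cd74, r was 0.78. The 6 pairs among Cd74, RT1-Da, RT1-Ba and RT1-Bb had r from 0.829 to 0.902 and rho from 0.579 to 0.809, and r from 0.641 to 0.783 without the 2 farthest animals of each pair. Without animal CB135 alone r ran from 0.664 to 0.791. Within number series 1 (35 animals) these pairs had r from 0.876 to 0.930, and within series 2 (26 animals) from 0.646 to 0.803.

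Correlations inside each group were positive for all 6 pairs. In the sub-acute groups r lay between 0.605 and 0.823 for sham animals and between 0.629 and 0.834 for blast animals, and rho from 0.292 (RT1-Ba with RT1-Bb) to 0.723 and from 0.507 to 0.801. In the chronic groups r ran from 0.70 to 0.892 (sham) and from 0.883 to 0.966 (blast), or from 0.471 to 0.836 in blast without animal CB135, and rho from 0.569 to 0.965 and from 0.638 to 0.886, or from 0.547 to 0.857 without CB135.

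B2m did not follow the class II genes once single animals were set aside. Its r with the 4 genes ran from 0.318 to 0.455 over the 62 animals (permutation p from 0.0332 to 0.119, adjusted p from 0.0622 to 0.161), but its rho ran from 0.036 to 0.120 (permutation p from 0.375 to 0.789). Without the 2 farthest animals of each pair r ran from -0.042 to 0.061, so the relation rested on those animals. Inside the chronic sham group r ran from -0.370 to -0.139, and inside the chronic blast group from 0.564 to 0.679, or 0.296 to 0.566 without animal CB135. The chronic blast values include the shallowest library, animal CB149, which was the lowest of its group for B2m, RT1-Da and RT1-Ba.

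**Figure D3:**
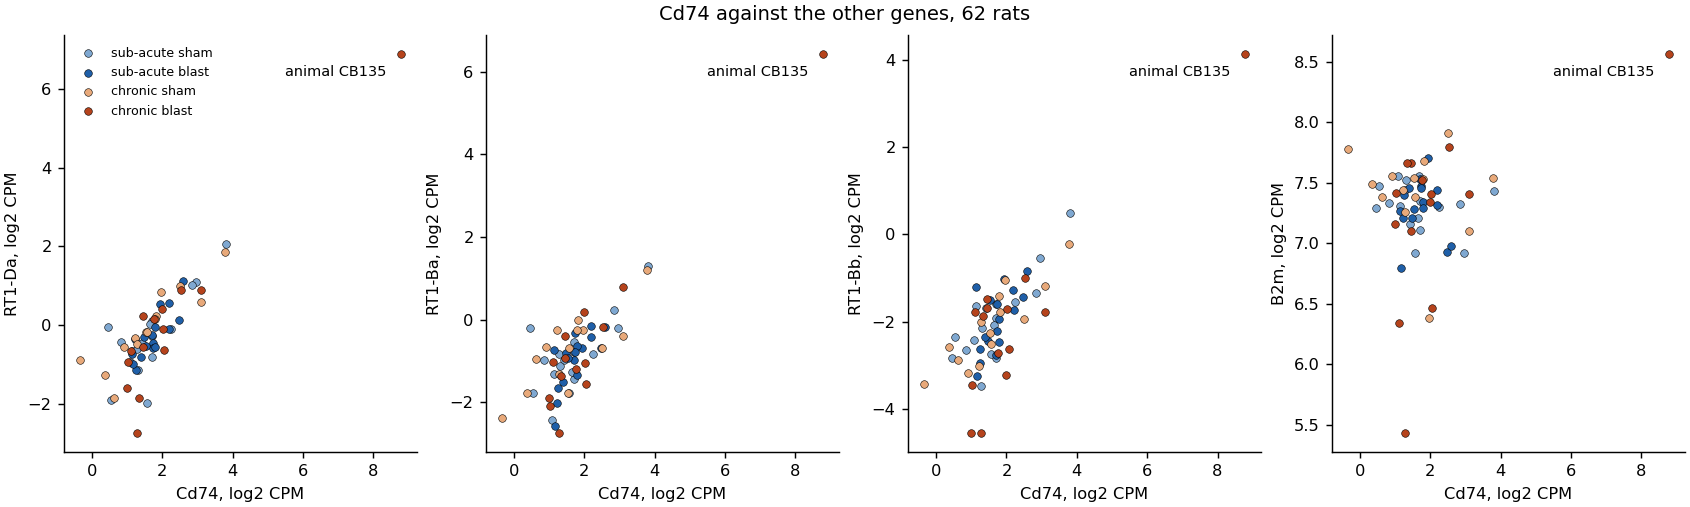
Log2 CPM of RT1-Da, RT1-Ba, RT1-Bb and B2m (vertical axes) against log2 CPM of Cd74 (horizontal axis), 1 point per rat, coloured by group. The 3 class II chains rise with Cd74 over all animals (r from 0.849 to 0.902 after subtracting group means), with animal CB135 at the far end. B2m forms a cloud with no clear slope (rho 0.036).

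The same relation was examined across all genes with Cd74 as a covariate in limma beside the 4 groups. Among the 16534 other genes, 474 (2.87%) had an adjusted p under 0.05 for the slope on Cd74, and RT1-Da, RT1-Ba and RT1-Bb were the first, the second and the third by p (adjusted p = 4.6e-35, 1.2e-33 and 8.0e-29). B2m was at rank 1013 with an adjusted p of 0.197. Without animal CB135, 538 genes (3.25%) passed, and RT1-Da kept rank 1 (adjusted p = 4.6e-14), with RT1-Ba at rank 9 (4.4e-10) and RT1-Bb at rank 13 (2.5e-09). The adjusted p of B2m was then 0.982 in limma. By correlation over the 62 animals, the genes most like RT1-Da, RT1-Ba and RT1-Bb were in each case the other class II genes and Cd74. For Cd74 they were RT1-Da, RT1-Ba and ENSRNOG00000033215 (r = 0.855), an identifier that the files do not pair with a name. This order rested in part on animal CB135. Without it RT1-Da was still the gene most like Cd74, RT1-Ba and RT1-Bb, and Cd74 the most like RT1-Da, but RT1-Ba and RT1-Bb fell to ranks 14 and 15 for Cd74, and RT1-Bb to rank 5 for RT1-Da and rank 6 for RT1-Ba.

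B2m was correlated with many more genes. Correlations of at least 0.7 were found with 1416 genes for B2m, and with 25 for Cd74, 10 for RT1-Da, 11 for RT1-Ba and 5 for RT1-Bb. Without animal CB135 the numbers were 1957 for B2m, 15 for Cd74, 5 for RT1-Da, 3 for RT1-Ba and 2 for RT1-Bb. Read counts differed greatly, with group medians from 8 to 11 for RT1-Bb and from 6896 to 8810 for B2m. Counting noise lowers r in genes with few reads, and its part in these numbers was not tested. With B2m as the covariate in limma, 9451 genes (57.2%) had an adjusted p under 0.05, and 60.2% without animal CB135. The slope was past this threshold for the 4 class II genes (adjusted p from 1.4e-06 to 0.00016), and no longer without animal CB135 (adjusted p from 0.33 to 0.917 in limma).

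B2m also moved with sequencing depth. Its r with the log2 library total was 0.56 (permutation p = 0.00013, adjusted p = 0.000279) and rho was 0.31 (permutation p = 0.017, adjusted p = 0.0364), with r of 0.40 without animals CB135 and CB149. Without animal CB135 alone r was 0.56 and rho was 0.28 (permutation p = 0.0312, adjusted p = 0.0669). Without CB135 and both shallow libraries, CB149 and CS115, r was 0.25, so the relation rested in part on those libraries. The relation was found in number series 1, with r of 0.74 (rho 0.61), and not in series 2, where r was 0.0099 (rho -0.086, permutation p = 0.668), but the difference between the series was not tested. The part of depth in the B2m levels was not tested. When the library total was added to the limma model, the log2 fold change of B2m between chronic and sub-acute animals was 0.36 in sham and 0.35 in blast (adjusted p = 0.20 and 0.16 in limma). The class II genes and Cd74 had r from 0.070 to 0.230 with the library total (permutation p from 0.129 to 0.627).

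**Figure D4:**
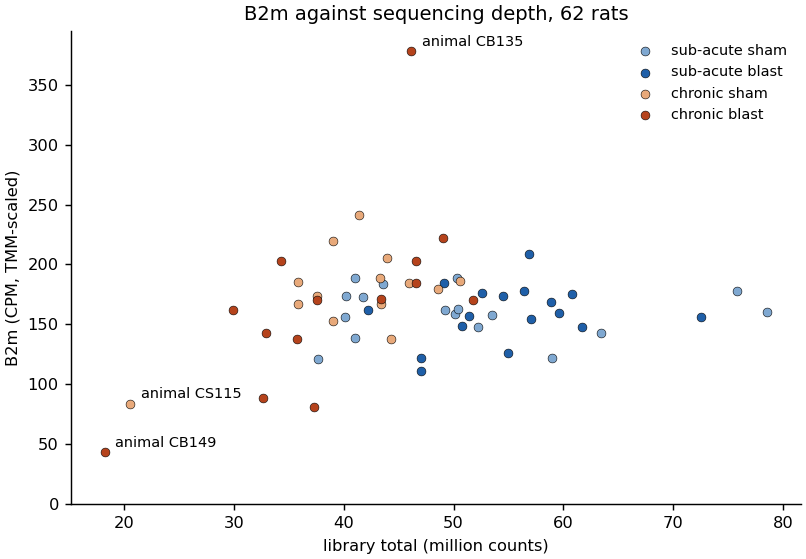
B2m in CPM (vertical axis, from 0) against the library total (horizontal axis), 1 point per rat, coloured by group. The 2 shallowest libraries, animals CB149 and CS115, have 43.2 and 83.5 CPM, and animal CB135 has 378 CPM at a middle depth.

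The spread among animals was compared as a ratio of variances of log2 CPM. Between chronic and sub-acute blast animals the ratio was 20.1 for Cd74, and 19 of the 16535 genes had a higher ratio. It was 14.3 for RT1-Da, 11.03 for RT1-Ba, 8.39 for RT1-Bb and 10.6 for B2m, beside a median of 2.41 over all genes. Without animal CB135 the ratios of the 4 class II genes fell to between 2.01 and 3.37, near that median, while B2m kept a ratio of 8.51, at percentile 95.9 of all genes. Between chronic blast and chronic sham animals the ratios ran from 3.42 for Cd74 to 6.06 for RT1-Ba, beside a median of 1.27 over all genes. Without animal CB135 the ratio was 0.341 for Cd74, 1.27 for RT1-Da, 1.17 for RT1-Ba, 1.59 for RT1-Bb and 3.42 for B2m, so Cd74 alone of the 5 varied less in blast than in sham animals. Between chronic and sub-acute sham animals the ratios of the class II genes ran from 0.889 to 1.49 (median of all genes 1.42), and that of B2m was 3.49. Between sub-acute blast and sham animals the ratio was 0.254 for Cd74, 0.335 for RT1-Da, 0.595 for RT1-Ba, 0.588 for RT1-Bb and 1.402 for B2m, at percentiles 3.6, 8.5, 30.9, 30.2 and 83.5 of all genes. The B2m ratios of 8.51 and 3.49 include the shallowest libraries, CB149 in blast and CS115 in sham. These had the lowest B2m levels of their groups (43.2 and 83.5 CPM). Animal CB149 also had the lowest RT1-Da, RT1-Ba and RT1-Bb of the chronic blast group (2, 2 and 0 reads). Ratios without these libraries were not computed, so how far the spread of B2m and of these genes rests on them is not known. All these ratios are descriptions and were not tested.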

How the data were processed

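Amygdala RNA of 62 rats was sequenced after rRNA depletion with a stranded kit. Per the submitters' processing notes the reads were aligned with STAR 2.4.2a to Rnor 6.0 and counted per gene with featureCounts 1.4.3-p1. The deposited values are the authors' raw counts, not normalized. The strand setting and the handling of reads mapping to several places are not given in the sources used here, so genes with near-identical copies, as among the RT1 genes, are uncertain. Groups came from the labels. Another 2 columns of the counts matched no label and were left out.

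TMM factors (edgeR 4.0.16) were followed by voom and limma 3.58.1 in R 4.3.3, with 4 group means over all 62 animals and Benjamini-Hochberg adjustment over 16535 genes, those kept by filterByExpr. A call required an adjusted p under 0.05 and a fold change of at least 1.2, without the fold for the interaction. The study's methods name voom and limma, and the scaling and model were chosen here. Log2 CPM used a prior count of 2. Relations were tested by 100000 two-sided permutations within groups. The model was also run on simulated counts. These had the same spread per gene in all groups and no outlying animal, so that run does not bear on animal CB135. Within groups, all 454 pairs of animals differed by more than sampling noise (chi-square per gene 14.8 or more, where sampling alone gives about 1).

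The members, gene lists and named genes were chosen with earlier results of these data known. The rule named the 5 genes only, and the 3 genes most like each were taken from these data by correlation. The gene table at hand (GRCr8) paired 0 of the 32545 identifiers with a symbol, so the lists of further antigen presentation, interferon and cell type marker genes could not be run. As alternatives, DESeq2 1.42.0 and edgeR's quasi-likelihood test were run, as were different filters and scaling, quality weights, surrogate variables (sva 3.50.0), number series, library total, thinning and leaving out animals. Those without animal CB135 and those of number series 2 were chosen after seeing the data.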

Additional observations from a re-analysis of the deposited data

How the results depend on the processing

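Over 41 results, 419 values were computed, of which 356 were labelled the same as the main result. For single fold changes and relations, this meant the same direction and the same side of the threshold. The lowest and highest fold changes had to move by less than the spread between animals. Counts of called genes had to be unchanged, and ratios of variances had to stay within a set factor. Among the genes and comparisons that each alternative could test, the number called stayed 0, also without any single animal, except between chronic and sub-acute blast animals, where edgeR called 4 and surrogate variables called 1 (B2m, log2 fold change 0.29). The direction turned in 27 of 81 values for sub-acute blast against sham, 12 of 75 for time in sham and 14 of 71 for the interaction, where none was called before or after. In the other comparisons it turned as follows, on the log2 scale, and the cause was not tested except where animal CB135 was left out. For chronic blast against sham, DESeq2 gave -0.15 for Cd74, -0.43 for RT1-Da, -0.28 for RT1-Ba and -0.34 for RT1-Bb, where the tool replaces outlying counts. In the same comparison leaving out animal CB135 gave -0.31 for RT1-Da, -0.23 for RT1-Ba and -0.38 for RT1-Bb in limma, and -0.13, -0.40, -0.26 and -0.31 for Cd74, RT1-Da, RT1-Ba and RT1-Bb in edgeR. Leaving out the libraries under 25000000 counts as well gave -0.12, -0.093 and -0.17 for RT1-Da, RT1-Ba and RT1-Bb, thinned counts gave -0.10 for RT1-Da, and surrogate variables gave 0.071 for B2m. For chronic against sub-acute blast, RT1-Da was at -0.036 in DESeq2, -0.15 without animal CB135, -0.0021 without the shallow libraries too and -0.025 in edgeR without animal CB135. RT1-Bb was at 2.55 in edgeR (called), 0.020 without TMM, 0.083 under quality weights, 0.62 after surrogate variables, 0.58 with the library total and 0.13 without the shallow libraries. B2m was at 0.080 in edgeR, 0.088 in DESeq2, 0.086 under quality weights, 0.29 after surrogate variables (called), 0.35 with the library total and 0.075 without the shallow libraries.

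Leaving out each animal in turn, the log2 fold change of chronic blast against sham ran from 0.17 to 0.89 for Cd74, from -0.31 to 0.44 for RT1-Da, from -0.23 to 0.52 for RT1-Ba, from -0.38 to 0.45 for RT1-Bb and from -0.29 to -0.054 for B2m. For chronic against sub-acute blast it ran from 0.0029 to 0.67, -0.15 to 0.60, 0.00089 to 0.75, -0.57 to 0.27 and -0.16 to 0.075 in the same order. The highest interaction among the genes was 3.55 in edgeR. The relation of B2m with Cd74 had r of -0.0067 without animal CB135 and -0.063 in number series 2, and those with RT1-Da, RT1-Ba and RT1-Bb had r of 0.19, 0.23 and 0.16 without animal CB135 and 0.11, 0.16 and 0.11 in series 2. The relation of RT1-Bb and B2m missed the threshold also with thinned counts (0.38), voom values (0.37) and in series 1 (0.46). Without animal CB135 the ratio of variances between chronic and sub-acute blast was 2.01, 3.37, 2.12 and 2.56 for Cd74, RT1-Da, RT1-Ba and RT1-Bb, and that of chronic blast to sham was 0.34, 1.27, 1.17 and 1.59. A filter of at least 10 counts in every animal removed RT1-Da, RT1-Ba and RT1-Bb, and RT1-Bb was not tested with thinned counts or in 2 of the fits of 2 groups alone. Those fits have no interaction, and number series 2 gives the sub-acute comparison only. No paired analysis was possible because no animal number occurs in more than 1 group. Depth limits RT1-Bb most.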
